A study of Mus musculus with 14 samples.

Results

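The cyclic nucleotide phosphodiesterases described here were 10 genes: *Pde1a*, *Pde1c*, *Pde2a*, *Pde3a*, *Pde3b*, *Pde4a*, *Pde4b*, *Pde4d*, *Pde5a* and *Pde10a*. They were taken by gene symbol from the 49315 genes of the table of read counts, and all 10 were among the 15292 genes with enough reads for a test. Mice of the genotypes WT and HCN4F underwent Sham or TAC surgery, and poly(A)-selected RNA of the left ventricle was sequenced 5 weeks later. HCN4F mice carry a knock-in that exchanges a tyrosine for a phenylalanine in the C-linker of the pacemaker channel HCN4, in all cells. TAC (transverse aortic constriction) narrows the aorta and loads the left ventricle with pressure, and Sham mice went through the operation without the constriction. The mice were male and 10 to 12 weeks old at surgery. Strain and zygosity are not given in the sources used here. The groups held 4 WT-Sham, 4 HCN4F-Sham, 4 HCN4F-TAC and 2 WT-TAC libraries (replicates 2 and 3), which the study describes as biological replicates.

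Phosphodiesterases break down cAMP and cGMP and so end the signals of adrenergic receptors, nitric oxide and natriuretic peptides. The families differ in substrate and control. PDE4 enzymes hydrolyze cAMP, PDE5 hydrolyzes cGMP, PDE3 hydrolyzes cAMP and is inhibited by cGMP, PDE2 is stimulated by cGMP, PDE1 is stimulated by calcium and calmodulin, and PDE10 takes both nucleotides. In cardiomyocytes PDE3 and PDE4 set much of the cAMP that reaches the calcium channels, the sarcoplasmic reticulum and the sarcomere, and HCN channels themselves are opened further by bound cAMP.

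Each library held 22309914 to 35210939 counts, and a member had 43 to 3739 counts per library, so that none was near the limit of 3 counts that a count of 0 allows (0.0859 to 0.137 CPM). Levels are given as CPM, counts relative to the TMM-scaled size of the library per 1000000 counts. The 8 cardiomyocyte markers summed to 57090 to 76190 CPM and the 8 atrial markers to 55.9 to 98.9 CPM, with *Stard10*, *Nr2f2* and *Tbx5* at 10.5 to 40.2 CPM each. HCN4F-TAC replicate 2 stood apart in genes of atrial muscle, with *Myl7* at 9.91, *Myl4* at 17.4 and *Sln* at 3.79 CPM. In the other 13 libraries *Myl7* reached at most 0.694, *Myl4* 4.07 and *Sln* 0.285 CPM. *Bmp10* was at 0 in that library and highest in HCN4F-TAC replicate 4 (0.529 CPM). The knock-in is an exchange of an amino acid, so the count of *Hcn4* does not check the labels. Bulk RNA cannot tell fewer cells of a type from less RNA per cell.

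TAC in HCN4F hearts was followed by higher transcript levels of 2 of the 10 members, *Pde1c* and *Pde3b*, where 13.6% of all genes tested passed, and of *Pde8a*, a phosphodiesterase gene outside the 10 that codes for a high-affinity enzyme specific for cAMP. *Pde8a* was also higher after TAC in WT hearts, where none of the 10 members passed the test. A member passes here where its adjusted p in edgeR's quasi-likelihood test is under 0.05. For *Pde8a* and *Pde1c*, as genes that rose, a RefSeq promoter window is printed 5′ to 3′ on the strand of the gene. It runs from 250 bases before to 50 bases after the annotated start on GRCm38.p6. For *Pde1c* it is the most upstream of the windows at hand, while the annotated gene reaches further upstream, to chr6:56569103. The *Pde8a* window is chr7:81213015-81213314 (plus strand) and that of *Pde1c* is chr6:56369585-56369884 (minus strand). Capitals mark the letters TGACG, the core of the cAMP response element, or CGTCA on the other strand.
Pde8a: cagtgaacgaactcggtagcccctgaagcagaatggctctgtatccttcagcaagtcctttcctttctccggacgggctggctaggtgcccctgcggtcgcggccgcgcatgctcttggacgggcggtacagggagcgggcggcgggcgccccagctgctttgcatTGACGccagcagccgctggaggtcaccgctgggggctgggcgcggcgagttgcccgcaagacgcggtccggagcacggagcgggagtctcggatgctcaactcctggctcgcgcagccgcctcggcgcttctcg
Pde1c: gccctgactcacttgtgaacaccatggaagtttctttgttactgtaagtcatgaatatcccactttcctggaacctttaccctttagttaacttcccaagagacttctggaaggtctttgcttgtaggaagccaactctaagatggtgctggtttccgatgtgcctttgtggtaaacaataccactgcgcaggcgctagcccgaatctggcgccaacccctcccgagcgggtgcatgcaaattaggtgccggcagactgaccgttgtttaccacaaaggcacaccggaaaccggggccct
The *Pde8a* window holds the core once, beginning 84 bases before the start, and the *Pde1c* window does not hold these letters. Neither do the other *Pde1c* windows at hand. Starts of *Pde1c* further upstream were not searched.

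The table of promoters held 8 of the 10 members (not *Pde3a* and *Pde3b*) in 23 windows. Of these, 4 windows held the core, 1 each of *Pde1a*, *Pde2a*, *Pde4a* and *Pde4b*, and 0 held the full element TGACGTCA. Among all 32851 windows of the same length, 20.8% held the core on either strand and 1.79% the full element. These letters are a description of the windows, and counts per gene do not tell which start was used.

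The members covered a wide range of levels when counts were divided by the length of the merged exons. *Pde4a*, a cAMP-specific enzyme, was highest with a median of 9.01 CPM per kb (6.59 to 11.1 over 14 libraries), followed by the cGMP-inhibited *Pde3a* at 7.18 (5.52 to 9.75). *Pde1c* stood at 2.49, *Pde4b* at 2.23, *Pde4d* at 1.40, *Pde2a* at 1.26, *Pde1a* at 0.805, *Pde3b* at 0.640, *Pde5a* at 0.599 and *Pde10a* at 0.241 CPM per kb. Neighbors in this order were not all apart. *Pde4a* lay above *Pde3a* in 13 of 14 libraries, *Pde1c* above *Pde4b* in 10, *Pde4d* above *Pde2a* in 10, *Pde1a* above *Pde3b* in 11 and *Pde3b* above *Pde5a* in 8 of 14. *Pde3a* was above *Pde1c*, *Pde4b* above *Pde4d* and *Pde5a* above *Pde10a* in 14 of 14. The order was the same when counts were divided by the length of the longest annotated transcript.

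**Figure D1:**
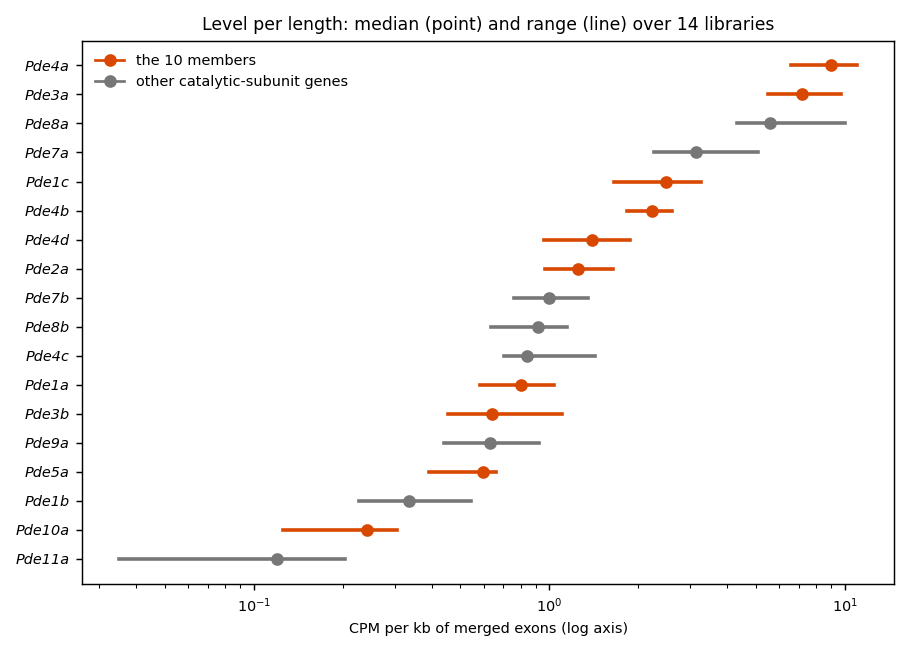
Level of each gene for a catalytic phosphodiesterase subunit with a median above 0.1 CPM per kb. Points are medians and lines are ranges over the 14 libraries, on a log axis in CPM per kb of merged exons, with the 10 members in orange and other genes for catalytic subunits in gray. *Pde6d*, *Pde6g* and *Pde6h*, which code for no catalytic subunit, are left out. *Pde4a* and *Pde3a* lead with 9.01 and 7.18, and *Pde8a* (5.57) and *Pde7a* (3.14) stand between *Pde3a* and *Pde1c* (2.49).

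Among 21 genes that code for catalytic phosphodiesterase subunits, the 10 members held 59.3% to 71.5% of the summed CPM per kb of a library. Their share was 66.8% ± 3.13 (SD, n = 4) in WT-Sham, 65.6% ± 0.611 (n = 2) in WT-TAC, 67.8% ± 2.48 (n = 4) in HCN4F-Sham and 61.7% ± 2.71 (n = 4) in HCN4F-TAC. The summed level of the 10 members was nearly the same in HCN4F-Sham (25.2 ± 1.56 CPM per kb) and HCN4F-TAC (25.2 ± 1.48), beside 27.2 ± 2.30 in WT-Sham and 29.3 ± 0.438 in WT-TAC. *Pde8a* alone took 13.3% ± 1.24 of the family sum in HCN4F-Sham and 21.5% ± 2.63 in HCN4F-TAC, and 12.9% ± 0.407 in WT-Sham and 17.8% ± 2.72 in WT-TAC. These shares are descriptions without a test.

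Libraries of a group also differed more for some members than for others. The biological coefficient of variation in the edgeR fit was lowest for *Pde4b* (9.96%) and *Pde4a* (10.4%), and highest for *Pde10a* (18.7%), *Pde4d* (17.9%) and *Pde3b* (16.0%), beside a median of 11.5% over all genes tested and of 9.93% over the 9339 genes within the range of levels of the members.

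**Figure D2:**
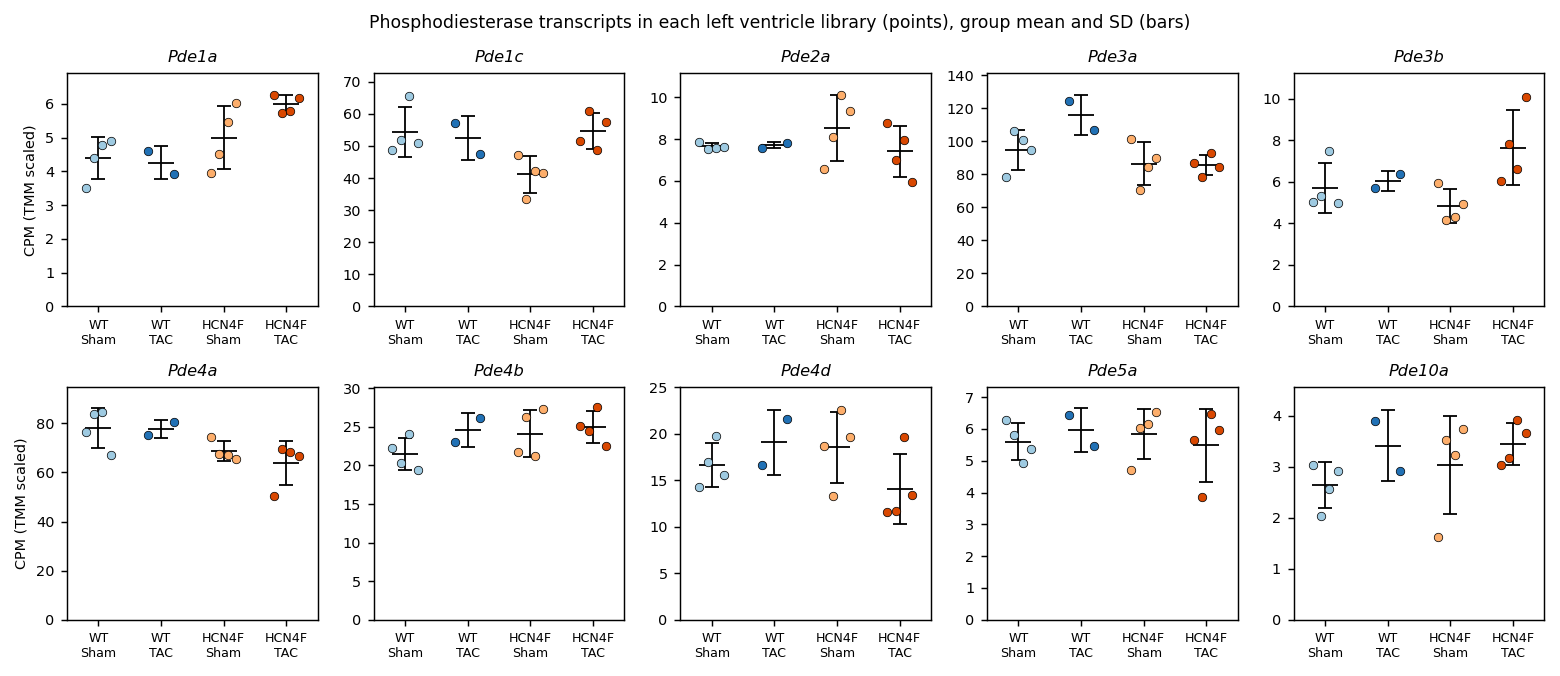
CPM of the 10 members in each library, by group. Points are libraries, horizontal bars group means and whiskers SD (n = 4, and n = 2 for WT-TAC), and each panel has its own scale from 0. *Pde1c* and *Pde3b* are higher in all 4 HCN4F-TAC than in all 4 HCN4F-Sham libraries.

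The question of what pressure load did to these transcripts in HCN4F hearts was answered by HCN4F-TAC against HCN4F-Sham. Of the 10 members, 2 rose and 0 fell, while 13.6% of all genes tested passed (7.2% higher and 6.41% lower). An unadjusted p under 0.05 was seen for 3 members and 28.3% of all genes. The median log2 fold change of the members was 0.02, beside -0.01 over all genes tested, and 5 members were above 0 and 5 below. At the threshold of the study, which also asks for a log2 fold change above 1 or below -1, 0 members and 2.75% of all genes passed. The groups did not overlap for 2 members and for 15.1% of all genes.

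*Pde1c* codes for a calcium and calmodulin-stimulated enzyme that hydrolyzes cAMP and cGMP (chr6:56069804-56569103, minus strand, GRCm38). It had 47.1, 33.4, 42.3 and 41.7 CPM in the HCN4F-Sham libraries and 51.6, 60.9, 48.6 and 57.5 CPM in the HCN4F-TAC libraries. Every HCN4F-TAC library was above every HCN4F-Sham library. The level rose 1.33-fold (95% interval 1.12 to 1.57), a log2 fold change of 0.41 (SE 0.11, adjusted p = 0.0246, edgeR quasi-likelihood test with Benjamini-Hochberg adjustment). The call was lost without HCN4F-Sham replicate 2 (0.32, adjusted p = 0.0675), HCN4F-TAC replicate 2 (0.35, 0.0793) or HCN4F-TAC replicate 4 (0.39, 0.0651), with the direction kept. HCN4F-TAC replicate 2 is the library with the highest atrial genes, and their part in the result was not tested.

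*Pde3b* codes for the cGMP-inhibited enzyme known for its part in insulin signaling in adipose tissue (chr7:114415281-114539251, plus strand, GRCm38). Its level was 5.95, 4.15, 4.30 and 4.95 CPM in HCN4F-Sham and 6.05, 7.84, 6.61 and 10.1 CPM in HCN4F-TAC. The lowest HCN4F-TAC library lay just above the highest HCN4F-Sham library. The rise was 1.58-fold (1.23 to 2.03), a log2 fold change of 0.66 (SE 0.17, adjusted p = 0.0174 in edgeR). Without HCN4F-Sham replicate 2 the log2 fold change was 0.59 (adjusted p = 0.0505), without HCN4F-TAC replicate 4 it was 0.50 (0.0659) and without HCN4F-TAC replicate 2 it was 0.64 (0.0462). Of the 8 adipocyte markers, *Cidea* was at 21.4 to 27.6 CPM and made up nearly the whole sum of 21.5 to 27.7 CPM. *Adipoq*, *Plin1*, *Cidec* and *Cfd* were at 0 to 0.687 CPM, and *Lep*, *Retn* and *Ucp1* at or under 3 counts in every library.

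*Pde3a* did not show the rise of its paralog *Pde3b*. *Pde3a*, the PDE3 gene that prevails in heart muscle, had 101, 70.2, 84.2 and 89.7 CPM in HCN4F-Sham and 86.7, 78.5, 93.1 and 84.4 CPM in HCN4F-TAC. Its groups overlapped, with a log2 fold change of -0.01 (95% interval -0.24 to 0.22). Per kb, *Pde3a* was 12.2, 12.1, 14 and 13 times as high as *Pde3b* in HCN4F-Sham and 10.2, 7.17, 10.1 and 5.98 times in HCN4F-TAC. The ratio was 11.1, 14.3, 9.60 and 13.5 in WT-Sham and 15.6 and 12 in WT-TAC. All 4 HCN4F-TAC ratios lay below the lowest HCN4F-Sham ratio, which is a description without a test.

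*Pde4d*, a cAMP-specific enzyme found near ryanodine receptors and beta-adrenergic receptors, had 18.7, 13.3, 22.5 and 19.7 CPM in HCN4F-Sham and 11.6, 11.7, 19.6 and 13.4 CPM in HCN4F-TAC. Of the 4 HCN4F-TAC libraries, 2 lay below all HCN4F-Sham libraries and replicate 3 among them. The log2 fold change was -0.40 (95% interval -0.79 to -0.01) and did not pass (SE 0.18, adjusted p = 0.170 in edgeR). Without HCN4F-TAC replicate 3 it was -0.61 (adjusted p = 0.0167).

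*Pde4a* and *Pde4b*, the other cAMP-specific members, did not pass. *Pde4a* had 74.5, 67.6, 67.0 and 65.4 CPM in HCN4F-Sham and 50.4, 69.4, 68.5 and 66.5 CPM in HCN4F-TAC, where only replicate 1 stood apart. *Pde4b* had 21.8, 26.2, 21.2 and 27.3 CPM against 25.2, 24.5, 27.6 and 22.6 CPM. The log2 fold changes were -0.11 (95% interval -0.31 to 0.10) for *Pde4a* and 0.05 (-0.16 to 0.26) for *Pde4b*.

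*Pde1a*, the other calcium and calmodulin-stimulated member, had 3.95, 4.52, 5.46 and 6.04 CPM in HCN4F-Sham and 6.26, 5.73, 5.79 and 6.18 CPM in HCN4F-TAC. The 4 HCN4F-TAC libraries were close together, but HCN4F-Sham replicate 4 lay among them. Its log2 fold change was 0.26 (SE 0.14, 95% interval -0.04 to 0.55, adjusted p = 0.242 in edgeR).

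For *Pde2a*, *Pde5a* and *Pde10a* the intervals included 0. The cGMP-stimulated *Pde2a* had 6.55, 8.12, 10.1 and 9.36 CPM in HCN4F-Sham and 8.79, 6.98, 7.95 and 5.94 CPM in HCN4F-TAC (log2 fold change -0.21, 95% interval -0.49 to 0.07). The cGMP-specific *Pde5a* had 4.71, 6.03, 6.15 and 6.52 CPM against 5.64, 3.85, 6.46 and 5.98 CPM (-0.10, -0.42 to 0.22). *Pde10a* had 1.62, 3.51, 3.22 and 3.74 CPM against 3.03, 3.16, 3.92 and 3.66 CPM (0.19, -0.26 to 0.63). Groups overlapped for all 3 genes.

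**Figure D3:**
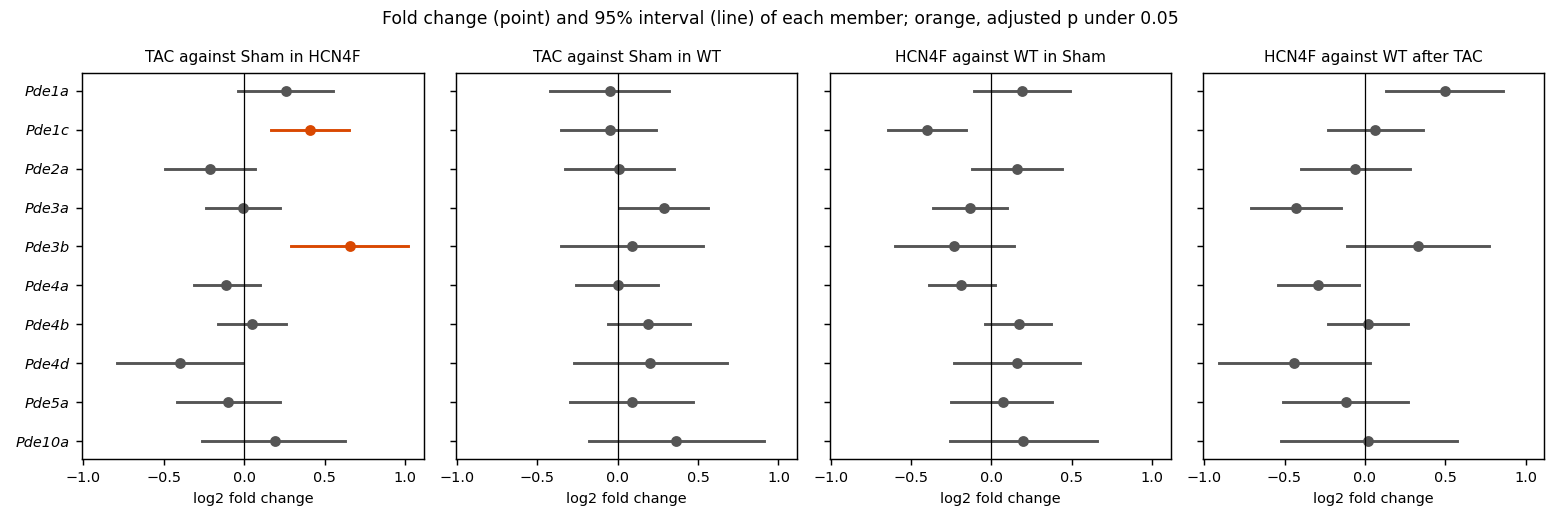
Log2 fold change of each member (point) with its 95% interval (line) in the 4 comparisons, from the edgeR fit of all libraries. Orange marks an adjusted p under 0.05, which only *Pde1c* (0.41) and *Pde3b* (0.66) reach, in TAC against Sham in HCN4F hearts.

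Cell type markers moved in the same comparison. The 8 cardiomyocyte markers summed to 64450 to 70250 CPM in HCN4F-Sham and 57090 to 63750 CPM in HCN4F-TAC, with 2 of 8 higher and 4 of 8 lower by the test. The 8 markers of activated fibroblasts summed to 68.0 to 110 CPM in HCN4F-Sham and 152 to 484 CPM in HCN4F-TAC, with 7 of 8 higher. The 8 fibroblast markers summed to 1539 to 2043 and 1751 to 2220 CPM, with 3 of 8 higher. Their part in the rise of *Pde1c* and *Pde3b*, or of *Pde8a* and *Adcy7* in the same comparison, was not tested.

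In WT hearts, where TAC was compared with Sham on 2 and 4 libraries, 0 of 10 members passed in edgeR (4.54% of all genes tested), and 1 of 10 had an unadjusted p under 0.05 (22% of all genes). DESeq2 also called 0. The median log2 fold change was 0.09, beside -0.02 over all genes. *Pde1c* had 48.7, 51.8, 65.6 and 51.1 CPM in WT-Sham and 57.2 and 47.6 CPM in WT-TAC. The WT-TAC libraries lay on both sides of most WT-Sham libraries, and the log2 fold change was -0.05 (95% interval -0.35 to 0.24). *Pde3b* had 5.03, 5.30, 7.49 and 4.998 CPM in WT-Sham and 5.71 and 6.38 CPM in WT-TAC, a log2 fold change of 0.09 (-0.35 to 0.53). The libraries of both groups overlapped for both genes.

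*Pde3a* was the member whose groups did not overlap in WT, as for 39.2% of all genes with 2 libraries against 4. It had 78.1, 106, 101 and 94.5 CPM in WT-Sham and 124 and 107 CPM in WT-TAC. The margin between WT-TAC replicate 3 and WT-Sham replicate 2 was small, and the log2 fold change of 0.29 (SE 0.13, 95% interval 0.01 to 0.56) did not pass (adjusted p = 0.215 in edgeR).

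The other cAMP-specific members in WT were *Pde4a* at 76.6, 83.8, 84.7 and 67.1 CPM in Sham and 75.2 and 80.4 CPM after TAC, and *Pde4b* at 22.2, 20.3, 24.1 and 19.4 against 23.0 and 26.1 CPM. *Pde4d* stood at 14.3, 17.0, 19.8 and 15.6 against 16.6 and 21.6 CPM. Their groups overlapped, with log2 fold changes of 0.19 for *Pde4b* (95% interval -0.06 to 0.45) and 0.20 for *Pde4d* (-0.27 to 0.68), and an interval of -0.26 to 0.25 for *Pde4a*. *Pde1a* had 3.51, 4.39, 4.78 and 4.90 against 4.60 and 3.92 CPM (-0.05, -0.42 to 0.32), and *Pde5a* 6.28, 5.80, 4.93 and 5.36 against 6.45 and 5.47 CPM (0.09, -0.30 to 0.47). *Pde2a* was narrow in WT hearts, at 7.87, 7.54, 7.57 and 7.64 CPM in Sham and 7.60 and 7.81 CPM after TAC. *Pde10a*, the lowest member, had 3.03, 2.03, 2.56 and 2.91 against 3.90 and 2.92 CPM (0.36, -0.18 to 0.91).

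Whether the response to TAC differed between genotypes was tested by the genotype by surgery interaction, in which 0 of 10 members and 0% of all genes passed in edgeR. DESeq2 also called 0 of the 10. At an unadjusted p under 0.05 there was 1 member, *Pde1c*, and 9.27% of all genes. The difference of the responses was 0.46 on the log2 scale for *Pde1c* (SE 0.18, 95% interval 0.08 to 0.85, adjusted p = 0.477). For *Pde3b* it was 0.57 (-0.01 to 1.14, adjusted p = 0.537) and for *Pde4d* -0.60 (-1.22 to 0.01, adjusted p = 0.541). The rise of *Pde1c* and *Pde3b* in HCN4F hearts is therefore not shown to differ from WT.

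HCN4F against WT in Sham hearts asked what the knock-in changed without load. In edgeR and DESeq2 0 of the 10 members passed, beside 0.471% of all genes tested, and 1 member had an unadjusted p under 0.05 (15.2% of all genes). *Pde1c* was at 33.4 to 47.1 CPM in HCN4F-Sham (41.1 ± 5.71, SD, n = 4) and at 48.7 to 65.6 CPM in WT-Sham (54.3 ± 7.67, n = 4). The groups did not overlap, as for 8.56% of all genes. The log2 fold change was -0.40 (SE 0.11, 95% interval -0.64 to -0.16, adjusted p = 0.123 in edgeR). It passed without the filter on low counts (adjusted p = 0.0382) and without HCN4F-Sham replicate 1 (adjusted p = 0.0427). After TAC the mean of *Pde1c* was 54.7 ± 5.55 CPM in HCN4F (n = 4) and 52.4 ± 6.80 CPM in WT (n = 2). The comparison of Sham groups shares its HCN4F-Sham libraries with the comparison of TAC and Sham in HCN4F, so the 2 differences of *Pde1c* are not independent.

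The cardiomyocyte markers summed to 64450 to 70250 CPM in HCN4F-Sham and 73810 to 76190 CPM in WT-Sham. The atrial markers summed to 71.9 to 91.1 and 65.5 to 71.4 CPM, and the smooth muscle markers to 2279 to 2592 and 2618 to 2898 CPM. The groups did not overlap for any of these sums. Of 8 cardiomyocyte, 6 atrial and 8 smooth muscle markers tested 0 passed between Sham groups in edgeR. At an unadjusted p under 0.05 there were 2 cardiomyocyte, 0 atrial and 1 smooth muscle markers. Log2 fold changes were below 0 for 7 of 8 cardiomyocyte and 8 of 8 smooth muscle markers, and above 0 for 6 of 6 atrial markers. Their part in the difference of *Pde1c* was not tested.

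The other members in Sham hearts had log2 fold changes from -0.23 for *Pde3b* (95% interval -0.60 to 0.14) to 0.20 for *Pde10a* (-0.26 to 0.66). Between these, *Pde4a* was at -0.19 (-0.39 to 0.02), *Pde3a* at -0.13 (-0.36 to 0.10), *Pde1a* at 0.19 (-0.11 to 0.49) and *Pde4b* at 0.17 (-0.04 to 0.37). All of these groups overlapped.

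HCN4F against WT after TAC rested on 4 and 2 libraries. In edgeR, and in DESeq2 on all groups, 0 of 10 members passed (0.111% of all genes tested in edgeR) and 3 had an unadjusted p under 0.05 (12.5% of all genes). The groups did not overlap for these 3, *Pde3a*, *Pde1a* and *Pde4a*, and for 22.2% of all genes. *Pde3a* had 78.5 to 93.1 CPM in HCN4F-TAC and 107 and 124 CPM in WT-TAC, a log2 fold change of -0.43 (SE 0.13, 95% interval -0.71 to -0.15, adjusted p = 0.184). DESeq2 on the compared groups gave an adjusted p of 0.0210 and edgeR without the filter 0.0390, over a range of 0.0210 to 0.802 among the alternatives. *Pde1a* had 5.73 to 6.26 CPM in HCN4F-TAC and 3.92 and 4.60 CPM in WT-TAC (0.50, 0.13 to 0.86, adjusted p = 0.249 in edgeR). *Pde4a* had 50.4 to 69.4 CPM in HCN4F-TAC and 75.2 and 80.4 CPM in WT-TAC (-0.29, -0.54 to -0.04, adjusted p = 0.333 in edgeR).

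Of the others after TAC, *Pde4d* had the lowest log2 fold change between genotypes (-0.44, 95% interval -0.91 to 0.03) and *Pde3b* the highest (0.33, -0.11 to 0.77). *Pde1c* (0.06), *Pde4b* (0.02), *Pde10a* (0.02), *Pde2a* (-0.06) and *Pde5a* (-0.12) lay near 0, with groups that overlapped. Markers of activated fibroblasts summed to 152 to 484 CPM in HCN4F-TAC and 115 and 130 CPM in WT-TAC. Cardiomyocyte markers summed to 57090 to 63750 and 69820 to 69910 CPM. Fibroblast markers summed to 1751 to 2220 and 1428 to 1748 CPM, and pericyte markers to 959 to 1157 and 1162 to 1237 CPM. Macrophage sums overlapped (161 to 268 and 159 to 162 CPM). In each of these lists 0 of 8 passed in edgeR. At an unadjusted p under 0.05 there were 7 activated fibroblast, 6 fibroblast, 5 macrophage, 2 cardiomyocyte and 1 pericyte markers. Their part in these differences was not tested.

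**Figure D4:**
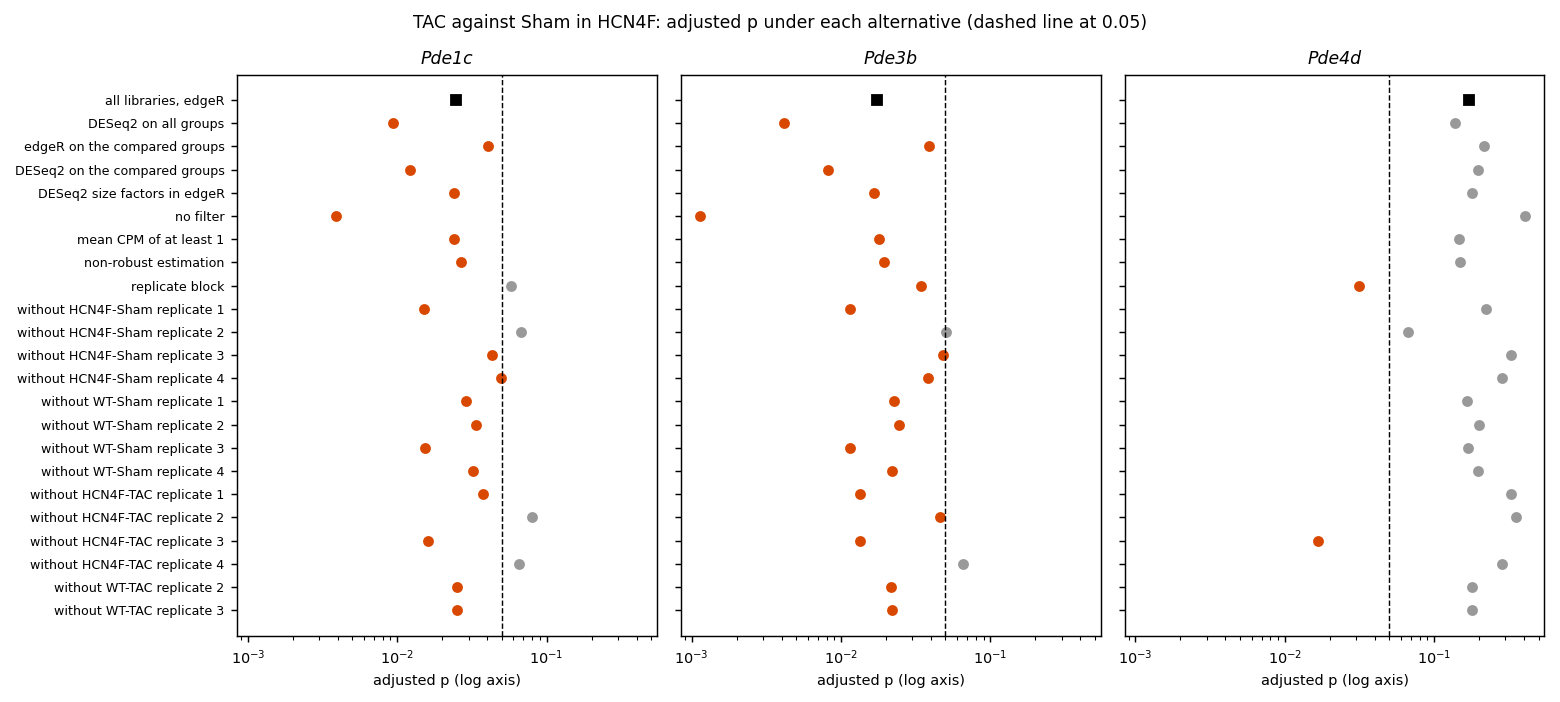
Adjusted p of *Pde1c*, *Pde3b* and *Pde4d* in TAC against Sham in HCN4F hearts under each way of processing the counts, on a log axis. The black square is the fit of all libraries, orange points lie under 0.05 (dashed line) and gray points above. *Pde1c* ranges from 0.00386 to 0.0793, *Pde3b* from 0.00114 to 0.0659 and *Pde4d* from 0.0167 to 0.408.

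The remaining phosphodiesterase genes were 14, of which 10 could be tested. After TAC 1 of the 10 rose in HCN4F (13.6% of all genes passed) and 1 of the 10 in WT hearts (4.54% of all genes), *Pde8a* in both, and 0 fell. It had 17.5, 19.8, 21.9 and 20.4 CPM in HCN4F-Sham and 36.6, 40.7, 30.02 and 34.7 CPM in HCN4F-TAC. In WT it had 19.7, 23.1, 21.5 and 20.6 CPM in Sham and 29.1 and 35.0 CPM after TAC. Neither genotype showed an overlap of TAC and Sham libraries, as for 15.1% of all genes in HCN4F and 39.2% in WT. The log2 fold change was 0.83 in HCN4F (SE 0.10, adjusted p = 6.95e-05 in edgeR) and 0.60 in WT (SE 0.12, adjusted p = 0.0134), and the interaction was 0.24 (SE 0.15, adjusted p = 0.667). The WT call was lost without WT-TAC replicate 3 (0.46, adjusted p = 0.251). In the same comparison in WT the cardiomyocyte markers summed to 73810 to 76190 CPM in Sham and 69820 to 69910 CPM after TAC, with 2 of 8 lower by the test. The activated fibroblast markers summed to 85.8 to 94.6 and 115 to 130 CPM, with 0 of 8 passing in edgeR and 1 of 8 at an unadjusted p under 0.05. The fibroblast markers summed to 1783 to 1897 and 1428 to 1748 CPM (1 of 8 lower by the test, *Dpt*) and the pericyte markers to 1009 to 1098 and 1162 to 1237 CPM (0 of 8 passing in edgeR, 3 at an unadjusted p under 0.05). The part of these markers in the rise of *Pde8a* was not tested.

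Cyclases make the nucleotides that phosphodiesterases remove. Of 21 cyclase genes 14 could be tested, and in HCN4F hearts after TAC 1 rose and 1 fell (13.6% of all genes passed), while 0 passed in WT (4.54%). *Adcy7*, an adenylyl cyclase known best from immune cells and platelets, had 6.89, 11.1, 8.42 and 8.94 CPM in HCN4F-Sham and 18.8, 24.9, 15.7 and 20.7 CPM in HCN4F-TAC. All HCN4F-TAC libraries were higher, with a log2 fold change of 1.18 (SE 0.15, adjusted p = 0.000175 in edgeR). In WT it had 9.72, 7.15, 8.87 and 8.62 CPM in Sham and 10.9 and 13.9 CPM after TAC (0.53, SE 0.19, adjusted p = 0.107). *Adcy8*, a calcium-stimulated adenylyl cyclase, fell by 1.26 on the log2 scale in HCN4F hearts (SE 0.35, adjusted p = 0.0244), with overlapping groups and levels of 0.198 to 2.00 CPM. In WT its log2 fold change was -0.53 (SE 0.42, adjusted p = 0.481). The interaction was 0.65 for *Adcy7* (SE 0.25, adjusted p = 0.47) and -0.73 for *Adcy8* (SE 0.55, adjusted p = 0.708). Neither response is therefore shown to differ between genotypes.

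**Figure D5:**
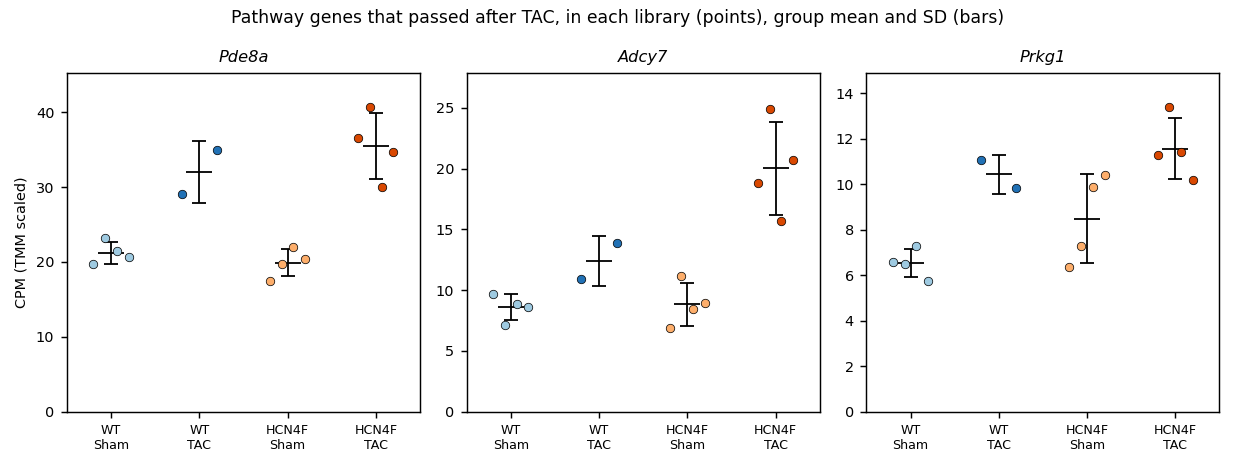
CPM of *Pde8a*, *Adcy7* and *Prkg1* in each library (points), with group mean and SD (bars; n = 4, and n = 2 for WT-TAC), each panel on its own scale from 0. *Pde8a* is higher after TAC in both genotypes, at 30.02 to 40.7 CPM in HCN4F-TAC and 29.1 and 35.0 CPM in WT-TAC against 17.5 to 23.1 CPM in the Sham libraries.

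Genes that bind or answer to the nucleotides were 20, of which 19 could be tested. In HCN4F hearts 3 rose after TAC and 1 fell (13.6% of all genes passed), and in WT 1 rose and 1 fell (4.54%). *Prkg1*, the cGMP-dependent protein kinase, had 6.36, 7.30, 9.87 and 10.4 CPM in HCN4F-Sham and 11.3, 13.4, 11.4 and 10.2 CPM in HCN4F-TAC, and 5.75 to 7.26 CPM in WT-Sham against 11.05 and 9.82 CPM in WT-TAC. The log2 fold change was 0.44 in HCN4F, where groups overlapped (SE 0.14, adjusted p = 0.0437 in edgeR). It was 0.68 in WT (SE 0.17, adjusted p = 0.0352), where they did not, as for 39.2% of all genes. *Pkig*, an inhibitor of protein kinase A, had a log2 fold change of -0.37 in both (adjusted p = 0.00454 in HCN4F and 0.0414 in WT). *Popdc3*, of the cAMP-binding Popeye family, rose by 0.75 in HCN4F (adjusted p = 0.00201), and *Prkar1a*, a regulatory subunit of protein kinase A, by 0.83 (adjusted p = 0.0111, groups overlapping). In WT their log2 fold changes were 0.49 for *Popdc3* (adjusted p = 0.0885) and 0.55 for *Prkar1a* (adjusted p = 0.175). Both WT-TAC libraries lay above all WT-Sham libraries for both genes, where 39.2% of all genes did not overlap in either direction.

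Anchors hold protein kinase A and phosphodiesterases at their sites in the cell. Of 23 such genes and partners 20 could be tested, and 2 passed in HCN4F (13.6% of all genes) and 1 in WT (4.54%). *Akap2* (0.59, adjusted p = 0.0275 in edgeR) and *Gskip* (0.41, adjusted p = 0.0158) rose in HCN4F hearts. In WT hearts *Akap2* had a log2 fold change of 0.51 (adjusted p = 0.155, interaction 0.08), with groups not overlapping, as for 39.2% of all genes. *Gskip* had one with a 95% interval of -0.27 to 0.28 in WT (interaction 0.41, adjusted p = 0.488). In WT hearts *Pde4dip* rose, the gene of myomegalin, which binds phosphodiesterase 4D (0.45, adjusted p = 0.0437), at 1410 to 1561 CPM in WT-Sham and 2131 and 1896 CPM in WT-TAC. In HCN4F hearts the log2 fold change of *Pde4dip* was 0.14 (95% interval -0.07 to 0.35, adjusted p = 0.366). The interaction was -0.30 (adjusted p = 0.570), so its responses are not shown to differ between genotypes. Between genotypes 0 genes of these 4 lists passed in edgeR, in Sham or after TAC.

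Without HCN4F-TAC replicate 2, the library with the highest atrial genes, 8.73% of all genes passed in TAC against Sham in HCN4F. The log2 fold change was then 0.76 for *Pde8a* (adjusted p = 0.000345 in edgeR), 1.05 for *Adcy7* (0.000716), 0.72 for *Popdc3* (0.00785), 0.59 for *Prkar1a* (0.0155) and -0.39 for *Pkig* (0.00945). *Adcy8* (-0.95, adjusted p = 0.0684), *Prkg1* (0.36, 0.151), *Akap2* (0.58, 0.0669) and *Gskip* (0.36, 0.0610) no longer passed.

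Pearson correlation of log2 CPM over the 14 libraries was used to name the genes whose pattern was most like that of the members that rose, among 12564 genes with a mean of at least 1 CPM. For *Pde1c* they were *Dpp9* (r = 0.900), *Ppp1r3c* (0.898) and *Apex1* (0.885), and for *Pde3b* they were *Ino80c* (0.931), *Blk* (0.895) and *Erlin1* (0.881). The libraries share groups and depth, and these values are a description. The members were themselves chosen here for their rise after TAC in HCN4F hearts, so these genes share that pattern by choice, and no test of them is given.

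The other members lie, on GRCm38, at chr2:79834453-80129458 (*Pde1a*, minus strand), chr7:101421691-101512827 (*Pde2a*), chr6:141249269-141507448 (*Pde3a*), chr9:21165714-21213248 (*Pde4a*), chr4:102087543-102607259 (*Pde4b*), chr13:108449948-109953461 (*Pde4d*), chr3:122728947-122859374 (*Pde5a*) and chr17:8525372-8986648 (*Pde10a*), these 7 on the plus strand. Annotated exons of 3 members overlap another gene. *Pde2a* shares 3955 exonic bases with *Gm45837* on its own strand, *Pde3a* shares 741 with the antisense gene *Gm28523*, and *Pde5a* shares 55 with *4930447N08Rik* on the opposite strand. The use of strand in counting is not stated, which leaves the levels of *Pde3a* and *Pde5a* uncertain to that extent. For *Pde2a* the overlap lies on the same strand, so its level and its place in the order per kb are uncertain whether or not strand was used.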

How the data were processed

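Poly(A)-selected RNA of 14 left ventricle samples was measured by RNA-seq. The authors deposited raw counts, the reads per gene in each sample, without normalization, in 1 table of 49315 genes, on build GRCm38 per the submitters' processing notes. The aligner, the counting program and the use of strand are not given in the sources used here. Groups came from the genotype and treatment labels. The table holds 2 further columns of counts that match no sample here, and they were not used. Further samples of the WT-TAC group were not analysed here.

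Genes were filtered with filterByExpr by group, counts were scaled by TMM and all 4 groups were fitted together in edgeR 4.0.16 (R 4.3.3), as WT-TAC has 2 libraries, with the robust quasi-likelihood test and Benjamini-Hochberg adjustment over 15292 genes. The study used DESeq2. The steps were tested on simulated data with planted changes larger than those of the members, so the recovery of changes of the size reported here was not tested. CPM per kb used merged exons of GENCODE release 21. Depth was 22309914 to 35210939 counts per library.

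The 10 members and the gene lists were chosen with earlier results of these data known. All members are named. Genes of the background lists are named where they passed in any comparison, and the 3 genes most like each member that rose are named by correlation of log2 CPM (prior count 2). *Pde7a* and the marker genes outside this rule were named after their values were seen.

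Alternatives were DESeq2 1.42.0 (on all groups and on those compared), edgeR restricted to the compared groups, size factors of DESeq2, no filter, a mean of at least 1 CPM, non-robust estimation, the replicate number as a block, the fold threshold of the study and leaving out each library. The length of the longest transcript was chosen after seeing the data. Promoters came from RefSeq on GRCm38.p6. Python 3.11.15 with matplotlib 3.10.9 drew the figures.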

Additional observations from a re-analysis of the deposited data

Results flagged for a closer look

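Of 30 sets of 4 libraries examined for a library far from the others (10 members in 3 groups), 2 were flagged, and chance flags about 1 in 20 such sets. *Pde3b* was at 7.49 CPM in WT-Sham replicate 3, with the other WT-Sham libraries at 4.998 to 5.30 CPM. *Pde4a* was at 50.4 CPM in HCN4F-TAC replicate 1, with the others of that group at 66.5 to 69.4 CPM. The gap to the nearest library was 0.881 of the range of the group for *Pde3b* and 0.849 for *Pde4a*.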

How the results depend on the processing

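In TAC against Sham in HCN4F hearts, *Pde1c* and *Pde3b* passed under DESeq2, other size factors, other filters and non-robust estimation. The number of members that passed was 0 at the fold threshold of the study and ranged from 0 to 3 when libraries were left out in turn. It was 0 without HCN4F-Sham replicate 2 or HCN4F-TAC replicate 4, 1 without HCN4F-TAC replicate 2, and 3 without HCN4F-TAC replicate 3. Between Sham groups it was 1 without the filter and 0 to 1 with a library left out, and between TAC groups it was 1 without the filter and 1 with DESeq2 on the compared groups. The cause was not tested.

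Same-numbered libraries of different groups did not deviate together (r from -0.12 to 0.16 over 18 pairs). No pairing by number was seen, but a weak correlation over all genes cannot exclude it. The 2 WT-TAC libraries mirror each other around their mean, so their pairs are not independent. With the replicate number as a block, 2 members passed in HCN4F, *Pde3b* and *Pde4d* (-0.41, adjusted p = 0.0315 in edgeR), *Pde1c* had an adjusted p of 0.0575, *Pde8a* in WT one of 0.0516, and *Pde2a* in WT turned to -0.023.

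Directions turned with a library left out for differences near 0. The log2 fold changes ranged, in TAC against Sham in HCN4F, from -0.099 to 0.073 for *Pde3a*, -0.017 to 0.12 for *Pde4b*, -0.19 to 0.04 for *Pde5a* and -0.022 to 0.31 for *Pde10a*. In TAC against Sham in WT they ranged from -0.16 to 0.066 for *Pde1a*, -0.19 to 0.075 for *Pde1c*, -0.01 to 0.031 for *Pde2a*, -0.003 to 0.38 for *Pde4d* and -0.031 to 0.21 for *Pde5a*. Between genotypes after TAC they ranged from -0.065 to 0.20 for *Pde1c*, -0.15 to 0.034 for *Pde2a*, -0.067 to 0.12 for *Pde4b*, -0.24 to 0.012 for *Pde5a* and -0.18 to 0.24 for *Pde10a*, and in the interaction from -0.38 to 0.035 for *Pde10a*. Of 1188 values under all alternatives, 1149 kept their direction and side of the threshold, not scoring the direction of *Pde4a* in WT, which is within 0.01 of 0. WT-TAC had 2 libraries, which limits every comparison with that group.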

Other observations

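Endothelial markers summed to 1117 to 1920 CPM and pericyte markers to 905 to 1237 CPM over all libraries, with 1 of 8 (*Fabp4*, lower) and 0 of 8 passing in HCN4F hearts after TAC. Macrophage markers summed to 164 to 220 CPM in HCN4F-Sham and 161 to 268 CPM in HCN4F-TAC, with 1 of 8 higher (*Cd14*). Of 8 smooth muscle markers 1 was higher, *Des*, which cardiomyocytes also express, at 1876 to 2235 CPM in HCN4F-Sham and 2436 to 3131 CPM in HCN4F-TAC. The other 7 did not pass, with log2 fold changes above 0 for 1 of them and below 0 for 6.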
